A study of Mus musculus with 3 samples.

Results

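Dermal papilla cells are the mesenchymal cells at the base of the hair follicle. In the normal library they were taken as cells with at least 300 detected genes, at most 20% mitochondrial UMIs and at least 1 UMI in 4 or more of the 6 genes Wif1, Vcan, Crabp1, Hhip, Sostdc1 and Corin. A UMI (unique molecular identifier) stands for 1 captured RNA molecule. The cells also had fewer than 10 UMIs of Krt5 and Krt14 together per 10000 and no UMI of Ptprc, limits set against keratinocytes and immune cells. Of the 10428 cells of the normal library that passed the gene and mitochondrial filters, 531 met this rule. Under the same rule 32 of 8008 cells of the imiquimod library and 98 of 6422 cells of the imiquimod and celastrol library were members, out of 24858 cells in all.

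The study sequenced the 3' ends of transcripts of single cells from the dorsal skin of C57BL/6 mice aged 7 weeks. The 3 libraries came from control skin treated with glycerin (normal), from skin treated with imiquimod (IMQ), which is used to induce psoriasis-like inflammation, and from skin treated with both imiquimod and celastrol (IMQ+celastrol). Each condition was 1 library, and the number of mice behind a library was not given in the sources used here. With 1 library per group no difference could be tested, the library and the treatment cannot be told apart, and all intervals below are exact 95% intervals that cover counting error only.

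The dermal papilla signals to the epithelial matrix cells around it and is known as an organiser of hair growth. Its cells secrete WNT agonists, fibroblast growth factors and BMP modulators, receive hedgehog and PDGF signals from the epithelium, and change their expression between growth and rest of the follicle. The connective tissue (dermal) sheath that surrounds the follicle is a contractile neighbour of the papilla, and papillary fibroblasts are the dermal cells nearest the epidermis.

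The libraries held 10565, 8236 and 6777 barcodes and 77880943, 119831835 and 103267738 UMIs in the order normal, IMQ, IMQ+celastrol. Members had a median of 5239, 26328 and 33318 UMIs in that order, and other mesenchymal cells 4435, 9054 and 9080. Members were thus deeper than other mesenchymal cells in all 3 libraries, with the wider gaps in the treated libraries. No member barcode was shared between libraries, while 14 to 25 of all filtered barcodes were shared by each pair.

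Because the members were chosen by 6 measured genes, the levels of these genes describe the choice. Levels are UMIs summed over the cells of a group and scaled to 1000000 (CPM). The WNT-binding protein gene Wif1 stood at 2759 CPM in the 531 members (2703 to 2817) and at 77.1 CPM in the 2819 other mesenchymal cells. Vcan, which encodes the large proteoglycan versican, stood at 3133 and 312 CPM, and the retinoic acid binding protein gene Crabp1 at 2382 and 160 CPM. The hedgehog-binding protein gene Hhip was at 1155 and 15.3 CPM, the BMP and WNT antagonist gene Sostdc1 at 1590 and 4.05 CPM, and the membrane protease gene Corin at 306 and 10.3 CPM. The genes differed in how many members held them: 526 of 531 had a Vcan UMI, 508 Hhip, 503 Crabp1, 486 Wif1, 400 Sostdc1 and 315 Corin. On the GRCm38 build these genes lie at chr10:121033960-121100650 (Wif1, plus strand), chr13:89655312-89742509 (Vcan, minus), chr9:54764748-54773110 (Crabp1, plus), chr8:79965851-80058006 (Hhip, minus), chr12:36314139-36318452 (Sostdc1, plus) and chr5:72300025-72504473 (Corin, minus).

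**Figure D1:**
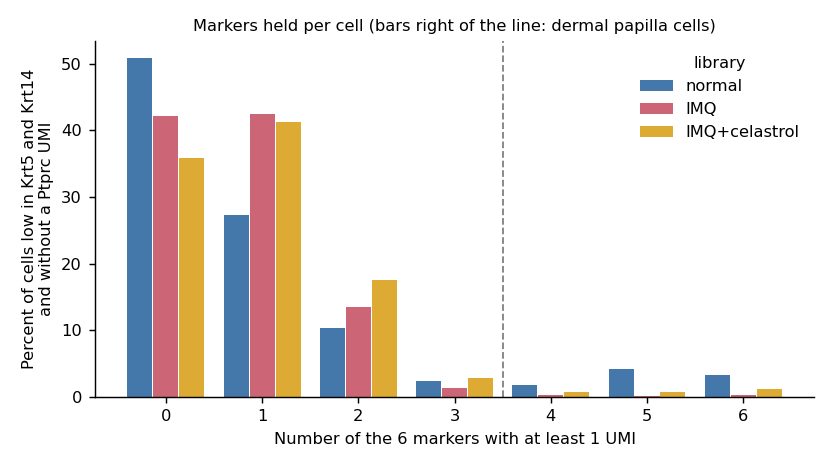
Percent of cells low in Krt5 and Krt14 and without a Ptprc UMI (y axis) by the number of the 6 markers held (x axis), with 1 bar per library. Bars to the right of the dashed line are the members: in the normal library 5 markers (242 cells) and 6 markers (186 cells) were held by more cells than 4 (103), while in the IMQ library 4, 5 and 6 markers were held by 13, 9 and 10 cells.

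At the threshold of the rule, the 103 cells of the normal library with 4 markers and the 135 cells with 3 had these summed levels. Rspo3 was at 799 CPM with 4 markers and 198 CPM with 3, Ndnf at 641 and 44.0 CPM, and Col1a1 at 3126 and 9698 CPM. The cells just inside thus resembled the other members in the first pair of genes, which in cells with 6 markers stood at 993 and 711 CPM. Col1a1, the main fibrillar collagen gene of dermal fibroblasts, was at 3126, 1163 and 582 CPM in members with 4, 5 and 6 markers. Members with 4 markers also held the larger fibroblast signal for decorin (Dcn), at 618 CPM against 200 CPM with 6 markers.

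A list of 30 further dermal papilla genes that the rule does not use was compared with the label. Members of the normal library held a UMI in a median of 16 of the 30 (range 1 to 28), other mesenchymal cells in a median of 2, and 428 of 531 members against 14 of 2819 other mesenchymal cells held 12 or more. Of the 30 genes, 28 passed a filter of 20 CPM averaged over both groups, and 27 of these were at least 2-fold higher in members on the log2(CPM + 5) scale, with a median log2 ratio of 3.20. Over all genes tested, 767 of 6507 (11.8%) were at least 2-fold higher and 464 (7.13%) at least 2-fold lower, and the median log2 ratio was 0.31. Every gene of these cells was open to influence from the rule, so counts and ratios within the normal library are given as description. Centring on the median of all genes gave 467 higher and 681 lower.

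The leading genes outside the rule were secreted signals, receptors and transcription factors. Gm14226, an unnamed protein-coding locus, was at 648 CPM in members and 0.608 CPM in other mesenchymal cells. The 283 members that held a UMI of it (53.3%) compared with 3 of 2819 other mesenchymal cells (0.106%). Ndnf, a secreted neurotrophic factor gene, was at 703 and 8.44 CPM (83.2-fold, 69.5 to 100), and the endothelin gene Edn3 at 474 and 4.59 CPM (103-fold, 81.0 to 134). Serpine2, the protease inhibitor nexin-1, was at 1441 and 26.3 CPM (54.8-fold, 49.5 to 61.0). The receptor phosphatase gene Ptprz1 was at 262 and 1.48 CPM, coagulation factor V (F5) at 491 and 7.76 CPM, and the prolactin receptor gene Prlr at 242 and 5.33 CPM. The secreted hedgehog-pathway modulators Scube3 and Scube1 stood at 439 and 160 CPM in members against 6.82 and 0.743 CPM. The transmembrane collagen gene Col23a1 was at 662 and 21.4 CPM. The leading genes Rspo2, Rspo3, Lef1 and Notum belong to the WNT lists below.

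At the other end were genes of dermal fibroblasts and of the stroma. The small proteoglycan gene Lum was at 82.0 CPM in members and 2377 CPM in other mesenchymal cells (29.0-fold lower, 25.7 to 32.8), and Dcn at 322 and 6761 CPM (21.0-fold lower, 19.8 to 22.3). Tenascin X (Tnxb) was at 17.1 and 526 CPM, and Cilp, a cartilage matrix protein, at 20.5 and 535 CPM. The chemokine genes Cxcl12 and Ccl19 were at 12.2 and 4.89 CPM in members against 267 and 159 CPM. The progenitor surface genes Cd34 and Ly6a were at 30.3 and 83.8 CPM against 562 and 1459 CPM. Serpina3n, an acute-phase protease inhibitor, was at 4.89 and 290 CPM. Hbb-bs, a haemoglobin chain of red blood cells, was at 2.45 and 195 CPM, and without the cells marked as doublets its log2 ratio was 0.14 in place of -4.75.

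**Figure D2:**
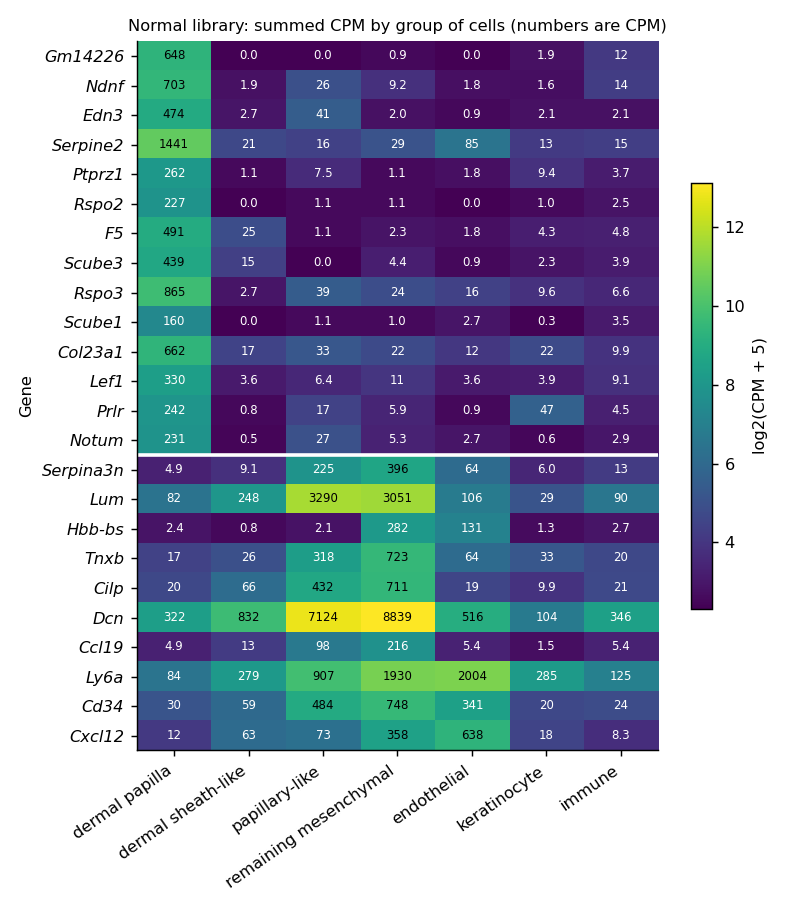
Summed CPM of 14 of the 15 genes with the highest (above the white line) and the 10 with the lowest ratio (below) in the normal library, for 7 groups of cells. Colour is log2(CPM + 5) and the printed numbers are CPM; Gm14226 stands at 648 CPM in dermal papilla cells and at 0 in the dermal sheath-like and papillary-like cells.

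Members carried the messages of several WNT agonists, the R-spondins, which stabilise WNT receptors. Of 15 WNT ligand and R-spondin genes 8 passed the filter, and 6 of these were at least 2-fold higher in members and 0 lower (median log2 ratio 2.48). Rspo3 was at 865 CPM in members and 19.9 CPM in other mesenchymal cells (43.6-fold, 38.6 to 49.3), Rspo2 at 227 and 0.810 CPM (280-fold, 159 to 545), Rspo1 at 545 and 80.1 CPM and Rspo4 at 58.4 and 8.24 CPM. Wnt5a, a ligand of the non-canonical pathway, was at 680 and 87.0 CPM (7.81-fold, 7.29 to 8.37). At an equal depth of 2000 UMIs per cell, an Rspo3 UMI was held by 64.2% of members (59.9% to 68.3%), 2.54% of other mesenchymal cells, 1.30% of keratinocytes and 0.561% of immune cells; 6 members fell below that depth. Without thinning, 83.4% of members (median 5239 UMIs) and 0.777% of immune cells (median 3459) held one.

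Most receptor genes of the pathway stood within 2-fold, as did most of all genes tested. Of 18 WNT receptor genes 8 passed the filter, and only Lgr4, the R-spondin receptor, was at least 2-fold higher in members, at 243 and 35.7 CPM. That count is near the share over all 6507 genes, of which 11.8% were higher. The frizzled genes Fzd1 and Fzd2 stood at 94.2 and 87.5 CPM in members and at 98.9 and 136 CPM in other mesenchymal cells.

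Secreted WNT inhibitors were high beside the agonists. Of 13 such genes, 2 were rule markers and 6 others passed the filter, of which 4 were at least 2-fold higher and 2 lower (median log2 ratio 2.12). Notum, an enzyme that removes the lipid of WNT proteins, was at 231 and 5.47 CPM (42.3-fold, 33.6 to 53.9), and the frizzled-related genes Frzb and Sfrp1 were at 120 and 269 CPM against 7.02 and 40.0 CPM. Dkk2 and Dkk3, of the dickkopf family, went the other way, at 32.1 and 22.0 CPM in members against 159 and 49.5 CPM. Among 11 target genes of the pathway 6 passed the filter. Lef1, a WNT-responsive transcription factor, was at 330 and 8.78 CPM (37.6-fold, 31.3 to 45.4), Nkd2 at 146 and 32.2 CPM, and Axin2, a general feedback target, at 23.9 and 18.6 CPM (1.28-fold, 0.986 to 1.66).

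BMP ligands, antagonists and targets were all represented in members. Of 15 BMP and TGF-beta ligand genes 11 passed the filter, with 6 at least 2-fold higher in members and Inhbb lower (median log2 ratio 1.71). Bmp6 was at 244 and 6.75 CPM (36.1-fold, 29.3 to 44.9), Bmp4 at 288 and 41.4 CPM (6.95-fold, 6.27 to 7.70), the activin subunit gene Inhba at 333 and 38.7 CPM, and Gdf10 at 153 and 12.2 CPM. Antagonists were mixed: of 13 genes 9 passed the filter, 4 were at least 2-fold higher and 1 lower, and their median log2 ratio was -0.55. Follistatin (Fst), which binds activins and BMPs, was at 553 and 50.8 CPM (10.9-fold, 9.99 to 11.9) and the pseudoreceptor gene Bambi at 156 and 17.8 CPM. Noggin (Nog) was at 40.1 and 11.2 CPM, while gremlin 1 (Grem1) was at 6.12 and 94.1 CPM (15.4-fold lower, 9.92 to 25.2). The Id genes, which BMP signalling induces, stood higher in members, with Id3 at 2891 and 831 CPM, Id2 at 539 and 131 CPM and Id1 at 232 and 66.8 CPM. All 5 target genes of 6 that passed the filter were at least 2-fold higher. Of 10 receptor genes 7 passed, with Tgfbr1 higher and Tgfbr2 and Tgfbr3 lower.

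Genes that respond to hedgehog signalling were higher in members. Of 14 pathway genes, 1 was a rule marker and 9 others passed the filter, with 4 at least 2-fold higher and 2 lower. The receptor and target gene Ptch1 was at 675 and 95.4 CPM (7.07-fold, 6.61 to 7.57) and the target gene Gli1 at 131 and 36.5 CPM (interval of the ratio 3.16 to 4.09). Gli2 and Gli3 were at 80.8 and 84.7 CPM against 34.0 and 30.8 CPM. The co-receptor genes Gas1 and Cdon were lower, at 67.0 and 2.14 CPM in members against 547 and 60.0 CPM. Smo, the signal transducer, was at 74.3 and 41.9 CPM.

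In the Notch pathway, 7 of 14 genes passed the filter, with 4 at least 2-fold higher and 2 lower. The ligand gene Jag1 was at 255 and 43.7 CPM and the target gene Hey2 at 127 and 2.90 CPM (43.7-fold, 31.9 to 61.3). Hey1, a related target, was at 51.4 and 6.68 CPM. Hes1, another target, was at 64.5 and 240 CPM, and the receptor gene Notch2 at 51.7 and 115 CPM.

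Among growth factors, members held the messages of factors known to act on follicle epithelium and melanocytes. The list had 29 names, 28 of them in the files (Ctgf and Ccn2 name the same gene), and 13 passed the filter: 8 were at least 2-fold higher and 2 lower (median log2 ratio 2.17). Fgf7, the keratinocyte growth factor, was at 728 and 55.1 CPM (13.2-fold, 12.2 to 14.3) and Fgf10 at 197 and 25.8 CPM. Midkine (Mdk) was at 1053 and 64.6 CPM (16.3-fold, 15.2 to 17.5), the neuregulin gene Nrg2 at 163 and 2.63 CPM, and pleiotrophin (Ptn) at 117 and 22.1 CPM. Igf1 and Kitl, the latter encoding the ligand of the melanocyte receptor Kit, were lower, at 58.1 and 10.7 CPM against 249 and 31.9 CPM. Of 17 receptor genes 11 passed. Fgfr1 and Fgfr2 were higher, at 818 and 232 CPM against 125 and 69.6 CPM, and Egfr and Ednrb lower, at 6.73 and 31.5 CPM against 52.4 and 259 CPM. Pdgfra, the PDGF receptor shared by skin fibroblasts, was at 285 and 329 CPM, and 387 of 531 members held a UMI of it. Other mesenchymal cells could enter their group by a Pdgfra UMI, so its level there is in part set by that choice.

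All 8 genes of the IGF binding list passed the filter. Pappa and Pappa2, proteases that release IGF from its binding proteins, were at 146 and 219 CPM in members against 39.6 and 7.36 CPM. Igfbp6 and Igfbp2 were lower, at 54.2 and 97.0 CPM against 574 and 872 CPM, and Igfbp5 was at 1816 and 1023 CPM. In the retinoid list, 10 of 16 genes passed the filter beside the rule marker Crabp1. Crabp2 was at 288 and 20.4 CPM and Aldh1a3, a retinoic acid synthesising enzyme, at 158 and 6.75 CPM, whereas Cyp26b1, which degrades retinoic acid, was at 268 and 602 CPM.

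**Figure D3:**
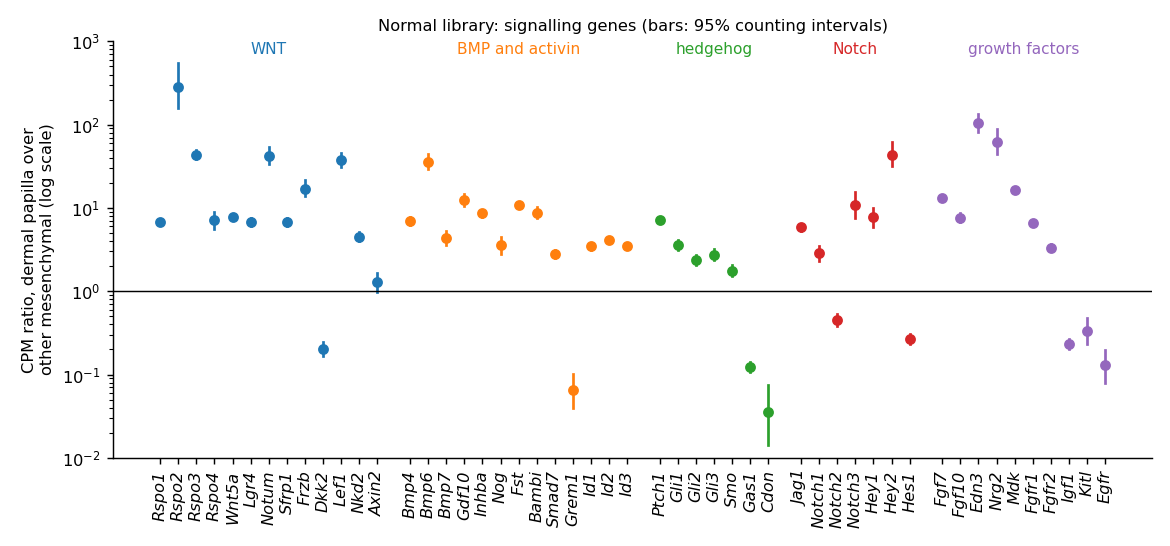
CPM in dermal papilla cells divided by CPM in other mesenchymal cells of the normal library (y axis, log scale) for genes of 5 pathways (x axis), with bars for 95% counting intervals. Points above the line at 1 are higher in dermal papilla cells, such as Rspo2 at 280-fold, and Dkk2, Grem1, Gas1 and Cdon lie below it.

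Transcription factors were among the members' marked genes. Of 46 mesenchymal transcription factor genes 33 passed the filter, 22 at least 2-fold higher and 2 lower (median log2 ratio 1.42). Alx4, a homeobox gene, was at 177 CPM in members against 13.2 CPM. Trps1, a GATA-type repressor needed for hair development, was at 1163 and 141 CPM, Runx3 at 280 and 23.0 CPM, and En1, a dorsal skin homeobox gene, at 440 and 73.1 CPM. Prdm1 was at 114 and 14.2 CPM and Ebf1 at 1429 and 382 CPM. Twist2 and Creb5 were lower, at 50.8 and 11.6 CPM against 157 and 109 CPM. Twist1 was at 708 and 322 CPM (2.20-fold, 2.09 to 2.31).

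Messages of fibrillar collagens were low in members. Other mesenchymal cells could enter their group by Col1a1, Col1a2 and Col3a1, so the difference in these 3 genes is in part fixed by that choice. Of 15 fibrillar and beaded collagen genes 14 passed the filter, and 0 were at least 2-fold higher and 10 lower (median log2 ratio -1.69). With a Pdgfra UMI required of both groups the counts were again 0 and 10. Col1a1 was at 1247 CPM in members and 18873 CPM in other mesenchymal cells (15.1-fold lower, 14.7 to 15.6), and 5 of 531 members carried 1233 of its 4075 UMIs. Col1a2 was at 1525 and 15068 CPM and Col3a1 at 1619 and 12045 CPM. Proteoglycan genes were also mostly lower: 19 of 28 passed the filter beside Vcan, with 3 at least 2-fold higher (Sdc1, Sdc3 and Gpc1, cell surface heparan sulfate carriers) and 10 lower. Biglycan (Bgn) was at 725 and 1912 CPM and asporin (Aspn) at 73.7 and 790 CPM. Basement membrane genes were mixed, with 4 higher and 5 lower of 16 that passed among 27. Lamc3, a laminin chain, was at 432 and 60.4 CPM and Frem1, which links the epidermis to the dermis, at 256 and 18.2 CPM, while Col7a1 and Col18a1 were at 26.6 and 22.3 CPM against 119 and 92.0 CPM.

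Of 41 guidance and adhesion genes 28 passed the filter, with 8 at least 2-fold higher and 6 lower (median log2 ratio 0.07). The adhesion genes Ncam1 and Cntn1 were at 516 and 72.2 CPM in members against 142 and 2.70 CPM, and the netrin receptor gene Unc5c at 79.2 and 1.69 CPM. Efnb1 was at 200 and 42.1 CPM, and Robo1 at 144 and 46.2 CPM. Cdh4 and Sema3a were lower, at 1.84 and 4.28 CPM against 58.5 and 37.2 CPM.

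Members showed few cells with cell cycle messages. A UMI in at least 3 of 10 mitotic and replication genes was held by 16 of 531 members (3.01%, 1.73% to 4.85%), by 125 of 2819 other mesenchymal cells (4.43%, 3.70% to 5.26%) and by 765 of 1111 hair matrix or inner root sheath cells (68.9%, 66.0% to 71.6%). Those hair cells had a median of 13577 UMIs, against 5239 in members. Of 20 cell cycle genes 8 passed the filter and 0 were 2-fold apart in either direction. The kinase inhibitor genes Cdkn1a, Cdkn1b and Cdkn1c stood at 112, 77.1 and 93.6 CPM in members and at 188, 71.0 and 107 CPM in other mesenchymal cells. Among 16 immediate early and heat shock genes, a list added after the values were seen, Jun, Junb and Dnajb1 were at least 2-fold higher in members and Atf3 and Dusp1 lower. Their summed level was 20050 CPM in members and 12934 CPM in other mesenchymal cells, a difference whose part in other results was not tested.

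Summed markers of other cell types were lower in members for some types and higher for others, with single cells carrying most UMIs of some genes. Both groups were limited in Krt5, Krt14 and Ptprc by their definitions, and only other mesenchymal cells also in Pecam1 and Cdh5. Of 14 keratinocyte markers 8 passed the filter, 0 at least 2-fold higher and 4 lower, and their summed level was 622 CPM in members and 1324 CPM in other mesenchymal cells. Endothelial markers summed to 18.1 and 25.1 CPM, with Cldn5 at 0 in members, and melanocyte markers to 48.0 and 32.8 CPM. Pericyte markers summed to 174 and 512 CPM, with Abcc9 and Higd1b at 0. Schwann cell markers summed to 538 CPM in members, nearly all of it from Ncam1. Immune markers summed to 290 and 71.2 CPM, and 1 member carried 284 of the 324 UMIs of Cd74. Without that cell Cd74 was at 12.3 CPM. Hair matrix and inner root sheath markers summed to 174 and 58.9 CPM, and 1 member carried 156 of the 176 UMIs of Krt35. Of 22 dermal fibroblast markers 21 passed the filter, with Apod, a lipid carrier gene, higher (1003 and 363 CPM) and 19 lower. Of 12 dermal sheath genes 8 passed the filter, 0 at least 2-fold higher and 5 lower, and they summed to 1312 and 2810 CPM. Doublet calling marked 182 of the cells of the normal library (1.75%), 7 of them members.

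Members were also compared with 2 neighbouring mesenchymal groups. Dermal sheath-like cells (405 cells) were other mesenchymal cells with a UMI in 3 or more of Col11a1, Lrrc15, Acan, Stmn2 and Itga8, and papillary-like cells (166) those with 3 or more of Crabp1, Fmod, Dkk2 and Aspn. These 9 genes define the groups. Relative to sheath-like cells, 900 of 6381 genes (14.1%) were at least 2-fold higher in members and 421 (6.6%) lower. Of the 28 dermal papilla genes outside the rule that passed the filter, 25 were higher and Tbx18, a T-box factor of follicle mesenchyme, lower. Rspo3 was at 865 CPM in members and 2.74 CPM in sheath-like cells, and Bmp4 at 288 and 6.04 CPM. Corin was at 306 and 39.5 CPM, Vcan at 3133 and 546 CPM, Alx4 at 177 and 41.7 CPM and Sox18 at 258 and 149 CPM, so these genes were also detected in the sheath-like cells. The contractile genes Acta2 and Tagln were at 209 and 224 CPM in members and at 3197 and 1742 CPM in sheath-like cells. Ednrb, the endothelin B receptor, was at 31.5 and 1002 CPM (31.8-fold lower, 26.1 to 39.0), next to its ligand gene Edn3 at 474 CPM in members and 2.74 CPM in sheath-like cells. Of 13 cell cycle genes that passed the filter, 7 were at least 2-fold lower in members than in sheath-like cells and 0 higher.

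Relative to papillary-like cells, 813 of 6536 genes (12.4%) were at least 2-fold higher in members and 497 (7.6%) lower, and 25 of 27 outside dermal papilla genes that passed the filter were higher. Crabp1, which also helped to define the papillary-like group, was at 2382 and 1577 CPM (1.51-fold). Igfbp5 was nearly level, at 1816 and 1656 CPM (1.10-fold, 1.04 to 1.16). Trps1 was at 1163 and 414 CPM. Notum, Rspo3, Edn3 and Ndnf were at 26.8, 38.6, 40.7 and 25.7 CPM in papillary-like cells, against 231, 865, 474 and 703 CPM in members. Sox2 had 0 UMIs in the papillary-like cells, at least 19.5-fold lower against a floor of 3 UMIs over the group. Corin also had 0 UMIs there, but it is a marker of the rule that these cells did not meet. Fibroblast matrix genes were lower in members, with Lum at 82.0 and 3290 CPM and Dcn at 322 and 7124 CPM.

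Members were not uniform. Sox2, a transcription factor gene known to mark the papillae of guard, awl and auchene hairs in mice and to be absent from those of zigzag hairs, had a UMI in 119 of 531 members (22.4%, 18.9% to 26.2%). In cells thinned to 2000 UMIs the share was 11.0%, against 0.457% of other mesenchymal cells and 0 of 2228 keratinocytes. A missing UMI does not show that a cell lacks the message, so the split is one of detection. Median UMIs were 5622 with a Sox2 UMI and 5133 without. Between the sides, 61 of 6772 genes (0.901%) were at least 2-fold higher with a Sox2 UMI and 69 (1.02%) lower.

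Among genes outside the rule, Osr1, an odd-skipped transcription factor gene, was at 138 and 33.4 CPM (4.12-fold, 3.07 to 5.54) with and without a Sox2 UMI, Sfrp2 at 360 and 117 CPM, Rspo3 at 1493 and 657 CPM (2.27-fold, 2.11 to 2.45), F5 at 840 and 375 CPM and Apod at 1705 and 770 CPM. Cells without a Sox2 UMI had more Ndnf, at 885 CPM against 153 CPM (5.77-fold, 4.82 to 6.96), more Notum, at 288 and 61.4 CPM (4.69-fold, 3.52 to 6.38), and more Bmp6, at 292 and 98.2 CPM (2.98-fold, 2.36 to 3.80). Igfbp5 was at 2151 and 808 CPM. The rule markers Sostdc1, Vcan and Wif1 were at 3485, 4881 and 1442 CPM with a Sox2 UMI and at 961, 2554 and 3196 CPM without, values that the choice of members could influence. Sox18, known from the papillae of several hair types, was at 289 CPM without and 162 CPM with a Sox2 UMI, and 225 of 412 cells without (54.6%) and 44 of 119 with (37.0%) held a UMI of it. Hhip (1121 and 1166 CPM), Lef1 (338 and 327 CPM) and Trps1 (1164 and 1163 CPM) were nearly level on both sides, and were chosen after their values were seen. A few epithelial genes were higher without a Sox2 UMI through single cells: 1 member held 1531 of the 1578 UMIs of Cst6, 1 held 276 of 333 UMIs of Krt17 and 1 held 249 of 277 UMIs of Defb6. Acta2, a sheath gene, was at 263 CPM without and 47.9 CPM with a Sox2 UMI, and Ctgf at 127 and 18.4 CPM. An Acta2 UMI was held by 76 of the 531 members, and 5 of them carried 296 of its 684 UMIs. For Ctgf, 88 members held a UMI and 5 carried 100 of 326.

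**Figure D4:**
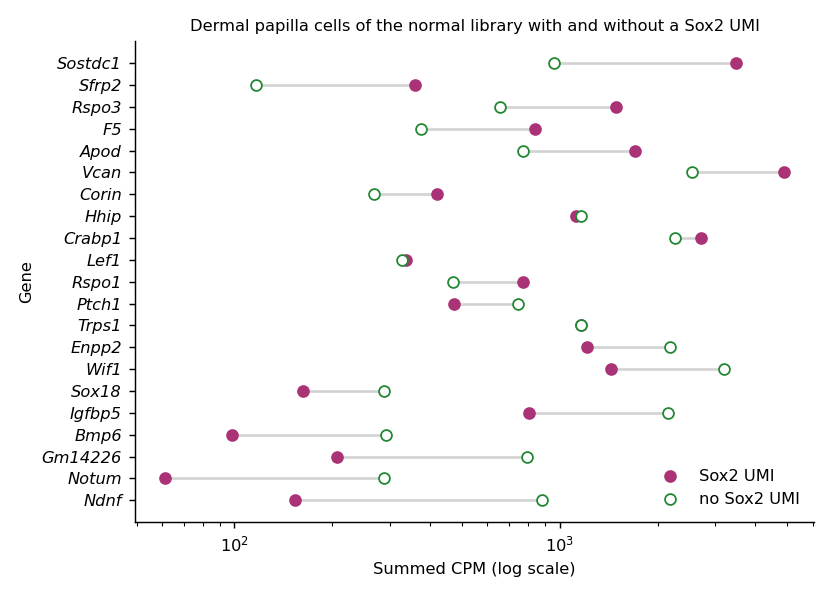
Summed CPM (x axis, log scale) of 21 genes (y axis) in the 119 dermal papilla cells of the normal library with a Sox2 UMI (filled) and the 412 without (open). Sostdc1, Sfrp2 and Rspo3 lie to the right with a Sox2 UMI, Ndnf, Notum and Gm14226 to the left, and Hhip, Lef1 and Trps1 nearly coincide.

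Gm14226 followed the same split, at 206 CPM with and 794 CPM without a Sox2 UMI, and 25 of 119 cells with (21.0%) and 258 of 412 without (62.6%) held a UMI. On GRCm38 it spans chr2:155018266-155027104 on the plus strand, inside the span of the agouti gene a (chr2:154791402-155051012, plus strand). None (0) of its 2 annotated exons overlaps an exon of a in the annotation used here. Agouti itself was at 236 CPM in members and 49.6 CPM in other mesenchymal cells (4.76-fold, 4.30 to 5.27). Raly, which overlaps the start of a on the same strand, was at 415 and 156 CPM. These neighbours were looked up after the values were seen, and reads that fall where the genes overlap could not be separated from the counts.

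The share of members differed widely between the libraries. Members were 531 of 10428 cells in the normal library (5.09%, 4.68% to 5.53%), 32 of 8008 in the IMQ library (0.400%, 0.274% to 0.564%) and 98 of 6422 in the IMQ+celastrol library (1.53%, 1.24% to 1.86%). The normal share was 12.7 times the IMQ share (8.92 to 18.8), and the IMQ+celastrol share was 3.82 times the IMQ share (2.54 to 5.88). Of mesenchymal cells, members made up 15.8%, 0.975% and 3.96%. After each cell was thinned to 2000 UMIs the rule found 441 of 9316 cells (4.73%), 2 of 7335 (0.0273%) and 7 of 5970 (0.117%), and the IMQ+celastrol share was then 4.30 times the IMQ share with an interval of 0.819 to 42.4. Other follicle cells also made up smaller shares of the treated libraries. Hair matrix or inner root sheath cells were 1111, 9 and 2 cells (10.7%, 0.112% and 0.0311%), and dermal sheath-like cells 405, 41 and 131 (3.88%, 0.512% and 2.04%). Between the treated libraries, the sheath-like share was higher in IMQ+celastrol, as the member share was, and the hair matrix share lower. Their part in the result was not tested. In IMQ the median depth was 7866 UMIs for cells with 4 markers, 27313 with 5 and 49372 with 6, and in the normal library 4786, 5115 and 5632. Fewer cells of a type and less marker RNA per cell cannot be told apart by a rule that counts markers.

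The cells found in the treated libraries carried the outside dermal papilla genes. In IMQ and IMQ+celastrol, members held a median of 18 and 19 of the 30 genes, and other mesenchymal cells 4 and 3. Of members, 22 of 32 and 82 of 98 held 12 or more. These counts were not thinned, and median UMIs were 26328 and 33318 in members and 9054 and 9080 in other mesenchymal cells. Members holding 12 or more had a median of 35422 and 40269 UMIs, and those holding fewer 6668 and 4270. Within the IMQ library 1415 of 6611 genes (21.4%) were at least 2-fold higher in members than in other mesenchymal cells and 587 (8.88%) lower, and 14 of the 18 outside genes that passed the filter were higher. Within the IMQ+celastrol library 882 of 6630 genes (13.3%) were higher and 696 (10.5%) lower, with 16 of 18 outside genes higher. In both libraries Lef1, Alx4, Trps1, Enpp2, Ndnf, Rspo3, Bmp4 and Notum were among them, and in both, as in the normal library, 0 of the outside genes that passed were lower. At least 3 papillary-like markers were held by 24 of 32 and 84 of 98 members, against 21 of 531 in the normal library. Crabp1 is among these markers and is also a marker of the rule. These counts were not thinned either, and the normal members had a median of only 5239 UMIs.

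Several genes differed less than 2-fold between the members of the 3 libraries, given here in the order normal, IMQ, IMQ+celastrol. Enpp2, which encodes the lysophospholipase autotaxin, was at 1946, 1739 and 1584 CPM, Trps1 at 1163, 1589 and 1306 CPM, Lef1 at 330, 230 and 379 CPM and Notum at 231, 196 and 302 CPM. The rule marker Crabp1 was at 2382, 1234 and 2220 CPM. In other mesenchymal cells Enpp2 stood at 132, 186 and 178 CPM and Notum at 5.47, 1.21 and 3.09 CPM.

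Other rule markers and signals were far lower in the treated libraries, where the members were also fewer and deeper. Vcan was at 3133, 81.0 and 105 CPM in members, while in other mesenchymal cells it was at 312, 328 and 318 CPM. Wif1 was at 2759, 424 and 454 CPM, Hhip at 1155, 91.5 and 97.8 CPM, Sostdc1 at 1590, 169 and 114 CPM and Corin at 306, 47.3 and 40.6 CPM. These 5 markers helped to choose the cells, so their levels across libraries describe the cells the rule found. At 2000 UMIs per cell a Wif1 UMI was held by 81.7% of normal members, 53.3% of IMQ members and 51.5% of IMQ+celastrol members, and an Rspo3 UMI by 64.2%, 40.0% and 49.5%. In the same order, the shares for Vcan were 92.8%, 13.3% and 21.65%, and for Hhip 81.3%, 13.3% and 20.6%. For Sostdc1 they were 57.5%, 36.7% and 21.65%, and for Corin 35.2%, 10% and 11.3%. Members holding 12 or more of the 30 outside genes had similar levels, with Vcan at 3319 CPM in normal and 58.5 CPM in IMQ, and Wif1 at 3004, 402 and 451 CPM.

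Genes outside the rule also stood apart between the libraries. Between IMQ and normal members, 800 of 6933 genes (11.5%) were at least 2-fold higher in IMQ and 770 (11.1%) lower, with a median log2 ratio of 0.05. Between IMQ+celastrol and normal, 487 of 6800 genes (7.16%) were higher and 583 (8.57%) lower. Both use the same normal cells. In other mesenchymal cells, 4.75% of 6037 genes were higher in IMQ than in normal and 3.46% lower. Of the 30 outside dermal papilla genes 28 passed the filter between IMQ and normal members, with 2 higher (Prdm1 and Spon1) and 15 lower.

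Gm14226 had 2117 UMIs in normal members and 0 in the members of both treated libraries, at least 205-fold lower in IMQ and at least 728-fold lower in IMQ+celastrol against a floor of 3 UMIs over the group. Thus 0 of the 32 IMQ members and 0 of the 98 IMQ+celastrol members held a UMI of it. Among members thinned to equal depth these were 0 of 30 and 0 of 97, with upper 95% limits of 11.6% and 3.73%. These limits are for cells with a UMI and set no limit on cells with the message. Igfbp5, an IGF binding protein, was at 1816, 25.3 and 30.5 CPM (71.9-fold lower in IMQ, 48.3 to 112), against 1023, 350 and 893 CPM in other mesenchymal cells. Follistatin (Fst) was at 553, 15.8 and 9.19 CPM in members and at 50.8, 186 and 112 CPM in other mesenchymal cells, so that the order of the 2 groups was opposite in the normal and the treated libraries. F5 was at 491, 9.47 and 8.30 CPM and Bmp6 at 244, 16.8 and 7.11 CPM. Edn3 was at 474, 38.9 and 22.8 CPM and Wnt5a at 680, 61.0 and 83.6 CPM.

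Targets of BMP and hedgehog signalling were among the lower genes. Of 5 BMP target genes that passed the filter, 4, the Id genes, were at least 2-fold lower in IMQ than in normal members, with Id3 at 2891, 453 and 392 CPM across the libraries and Id2 8.14-fold lower in IMQ. In other mesenchymal cells 0 of 4 were 2-fold apart, and Id3 was at 831, 574 and 456 CPM. Ptch1 was at 675, 77.9 and 125 CPM in members and at 95.4, 27.5 and 37.4 CPM in other mesenchymal cells, while Gli3, which was not 2-fold apart, was at 84.7, 131 and 130 CPM in members. Of 9 hedgehog pathway genes that passed the filter, Ptch1 and Gli1 were at least 2-fold lower in IMQ members and Boc and Gas1 higher, and in other mesenchymal cells Ptch1 and Gli1 were also lower, with 0 of 8 higher. Of 13 growth factor genes 2 (Fgf2 and Igf1) were at least 2-fold higher in IMQ members and 8 lower, including Fgf7 (728, 136 and 156 CPM) and Mdk (1053, 306 and 279 CPM). Pleiotrophin (Ptn) was at 117, 0 and 0.296 CPM in members.

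Fewer of the named signals were higher in the treated libraries. Igfbp3 was at 93.0, 3368 and 5137 CPM (36.2-fold higher in IMQ, 32.2 to 40.9), against 132, 1249 and 519 CPM in other mesenchymal cells. Dkk2, low in normal members, was at 32.1, 492 and 1178 CPM (15.3-fold, 12.4 to 19.1), and in other mesenchymal cells at 159, 131 and 170 CPM. The WNT ligand gene Wnt10a was at 5.81, 92.6 and 141 CPM, and Wnt6 was 5.27-fold higher in IMQ than in normal members (3.79 to 7.38). Bmp7 was at 62.4, 590 and 327 CPM and Bmp2 at 14.4, 141 and 99.6 CPM. The transcription factor gene Tfap2a was at 46.5, 224 and 273 CPM, the prolactin receptor gene Prlr at 242, 665 and 1184 CPM, agouti at 236, 747 and 707 CPM and the cell cycle inhibitor gene Cdkn1a at 112, 947 and 767 CPM. Srcin1, named after its values were seen, was at 3.37, 243 and 150 CPM in members and at 1.69, 1.12 and 1.82 CPM in other mesenchymal cells. Also chosen after their values were seen were the hyaluronan synthase gene Has1 (14.4, 502 and 344 CPM) and, from the genes low in normal members, Cilp (20.5, 722 and 266 CPM) and Serpina3n (4.89, 269 and 71.4 CPM). The summed level of the immediate early and heat shock list was 20050, 42306 and 34023 CPM in members, and its part in these differences was not tested. In IMQ and IMQ+celastrol members, markers of other cell types summed to 233 and 674 CPM for keratinocytes, 278 and 190 CPM for endothelial cells, 35.8 and 51.3 CPM for immune cells, 322 and 392 CPM for pericytes and 172 and 1161 CPM for the dermal sheath. Plvap, an endothelial diaphragm gene, carried 275 and 178 CPM of the endothelial sums and was held by 26 of 32 and 87 of 98 members. In IMQ members the endothelial genes Cdh5, Emcn, Tie1 and Cldn5 and the immune genes Cd3e, C1qa and C1qb were at 0. Their part in the differences between libraries was not tested. With members holding 12 or more of the outside genes, Igfbp3 was 58.3-fold and Dkk2 17.8-fold higher in IMQ.

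**Figure D5:**
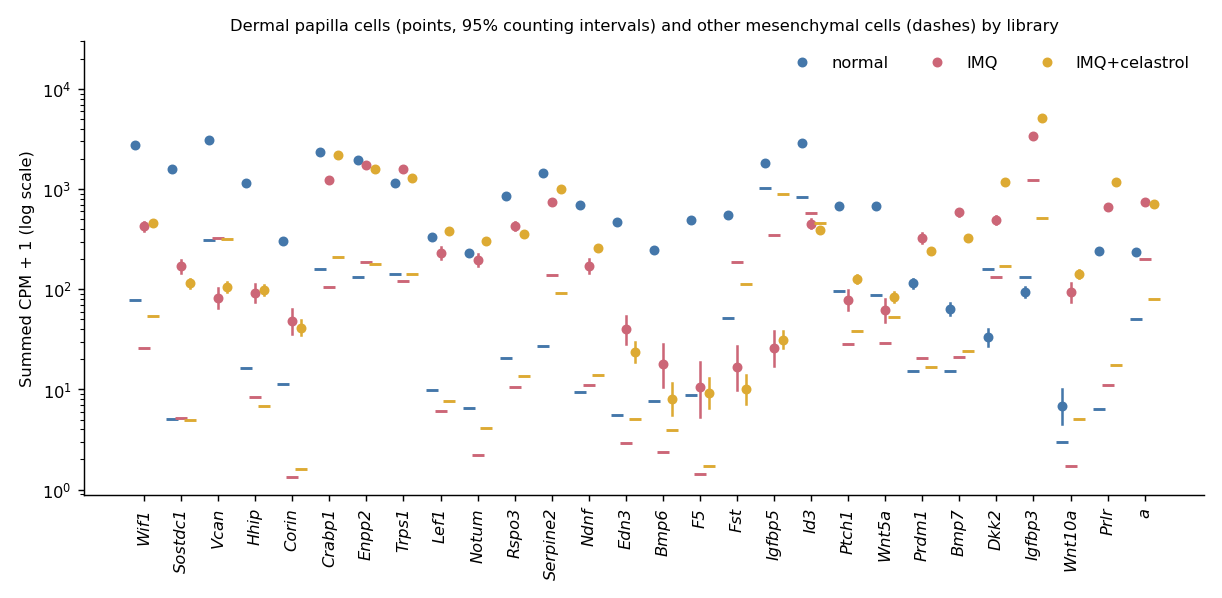
Summed CPM + 1 (y axis, log scale) of 28 genes (x axis) in the dermal papilla cells of each library (points with 95% counting intervals) and in other mesenchymal cells (dashes). Enpp2, Trps1, Lef1 and Notum lie close together across libraries, Vcan, Igfbp5, F5 and Fst lie far lower in both treated libraries, and Igfbp3, Dkk2 and Wnt10a lie higher.

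In the normal library, 17 of 22 inflammation genes passed the filter, with Socs3 higher in members (1604 and 318 CPM) and 9 lower than in other mesenchymal cells. Over all genes tested there, 11.8% were higher and 7.13% lower. In IMQ members several inflammation genes were higher than in normal members, some of them through few cells. Of 22 genes 16 passed the filter, 10 at least 2-fold higher and 2 (Ccl2 and Cxcl1) lower than in normal members. Among all genes tested between these members, 11.5% were higher in IMQ and 11.1% lower. The acute-phase gene Saa3 was at 0, 3136 and 178 CPM in members and at 2.84, 19197 and 1792 CPM in other mesenchymal cells. In IMQ, 5 of the 32 members carried 2374 of its 2981 UMIs, and without them it was at 781 CPM. In IMQ+celastrol 1 of 98 members carried 513 of 600 UMIs. Lcn2, the iron-binding lipocalin 2, was at 0, 338 and 27.6 CPM, and haptoglobin (Hp, named after its values were seen) at 0, 382 and 29.6 CPM. In other mesenchymal cells Lcn2 was at 0.473, 2518 and 186 CPM and Hp at 0.473, 96.6 and 6.81 CPM. Complement C3 was at 14.4, 254 and 30.8 CPM, but 1 of the 32 IMQ members carried 218 of its 241 UMIs, and without that cell it was at 24.6 CPM. Free RNA in droplets can give such UMIs, and no cell type here is sure to lack these genes. At 2000 UMIs per cell, a Saa3 UMI was held by 60.0% of IMQ members (40.6% to 77.3%), 61.0% of other mesenchymal cells, 11.3% of endothelial cells and 8.36% of keratinocytes. For Lcn2 the shares were 36.7%, 61.3%, 73.9% and 37.0%, and for C3 they were 2 of 30 members, 63.0%, 23.5% and 67 of 1339 keratinocytes, so that members stood near keratinocytes for both. In IMQ+celastrol a Saa3 UMI was held by 5.15% of members (1.69% to 11.6%) and 2.84% of endothelial cells. An Hp UMI was held by 9 of 30 IMQ members, 30.8% of immune cells, 4.12% of other mesenchymal cells and 0.373% of keratinocytes. Median UMIs were 26328 in IMQ members, 38079 in keratinocytes and 7103 in endothelial cells, and without thinning a Saa3 UMI was held by 71.9%, 46.6% and 24.4% of them. The part of free RNA in the levels was not tested. Within the IMQ library, 17 of 22 inflammation genes were at least 2-fold lower in members than in other mesenchymal cells, and 2 (Nfkbia and Socs3) higher. Among all 6611 genes tested there, 8.88% were lower and 21.4% higher.

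Between the members of the 2 treated libraries few genes were 2-fold apart. This comparison shares the IMQ cells with that of IMQ and normal. Of 6663 genes 78 (1.17%) were at least 2-fold higher in IMQ+celastrol and 133 (2%) lower, against 1.09% and 1.1% of 6154 genes in other mesenchymal cells. Of 17 inflammation genes that passed the filter 7 were lower in IMQ+celastrol and 0 higher: Saa3 (17.6-fold, 16.1 to 19.3), Lcn2, C3, Il6, Cxcl1, Cxcl12 and Lrp1. Without the top cell of each library C3 was at 24.6 CPM in IMQ and 23.3 CPM in IMQ+celastrol, so that its count as lower rests on 1 cell. Il6 had 42 UMIs in IMQ members, 37 of them in 5 cells. Without the top 5 cells Il6 was at 7.14 and 2.54 CPM, less than 2-fold apart on the log2(CPM + 5) scale. For Cxcl1, without the top 5 cells, the levels were 13.6 and 11.5 CPM, less than 2-fold apart. Saa3 in other mesenchymal cells was 10.7-fold lower, and its value in members without the top 5 cells was 781 CPM in IMQ and 10.7 CPM in IMQ+celastrol. Lrp1, a scavenger and signalling receptor that the study's title names as a target of celastrol, was at 370, 685 and 312 CPM in members (2.19-fold lower in IMQ+celastrol than in IMQ, 1.99 to 2.42) and at 1465 and 1068 CPM in other mesenchymal cells of the IMQ and IMQ+celastrol libraries. Of 22 outside dermal papilla genes that passed, Sox18 was at least 2-fold higher in IMQ+celastrol (7.36 and 83.6 CPM) and Spon1 lower (1312 and 571 CPM). Dkk2 was 2.39-fold higher in IMQ+celastrol (2.17 to 2.64) and the retinoic acid binding gene Crabp2 was at 32.6 and 147 CPM. Acta2 was at 9.47 CPM in IMQ and 372 CPM in IMQ+celastrol members, where 5 of 98 cells carried 1080 of 1257 UMIs, and it was at 56.7 CPM without them. Krt14, capped by the rule, was at 37.9 and 285 CPM in members and at 66.6 and 311 CPM in other mesenchymal cells, and its part in these differences was not tested.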

How the data were processed

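The authors deposited UMI counts for each gene in each barcode, in matrices whose headers name Cell Ranger 4.0.0. The submitters' processing notes name mm10 and GRCm38, and further settings are not given in the sources used here. Members and gene lists were chosen with earlier results of these data known. Groups followed the labels with 1 library each, so no test was run. UMIs were summed over cells and scaled to CPM, and genes with a mean of at least 20 CPM over the 2 groups were compared on log2(CPM + 5). Intervals are exact at 95%: Poisson for levels, conditional binomial for ratios, Clopper-Pearson for shares. Other mesenchymal cells held a Pdgfra UMI or at least 100 UMIs of Col1a1, Col1a2 and Col3a1 per 10000, with no Pecam1, Cdh5 or Ptprc UMI and the keratin limit of the members. Named genes were the 6 markers, the 15 highest and 10 lowest ratios at 100 CPM or more, up to 6 genes of each of 32 lists, and the largest ratios of the Sox2 split; 1 of these genes is not reported here. The genes named for their differences between libraries were chosen after the values were seen. Doublets were kept, and Scrublet calls (scanpy 1.11.5) were left out in an alternative. Python 3.11.15 and scipy 1.17.1 were used. The calculation of the ratios was run on simulated Poisson counts, the model that the intervals assume. That run says nothing on variation between cells or libraries.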

Additional observations from a re-analysis of the deposited data

How the results depend on the processing

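The share of members moved with the number of markers asked for. With at least 3 markers it was 6.39% in normal, 1.20% in IMQ and 3.10% in IMQ+celastrol, and with at least 5 markers 4.10%, 0.237% and 1.07%. With 12 of the 30 outside genes added, an alternative chosen after seeing the data, it was 4.10% in normal. After thinning to 2000 UMIs it was 0.0273% in IMQ and 0.117% in IMQ+celastrol. Limits of 10% mitochondrial UMIs, 500 genes or 5 keratin UMIs, and removal of doublets, moved no share beyond its interval. Median-centred ratios gave 467 genes at least 2-fold higher in normal members, and no filter on low genes gave 1261 higher and 734 lower. With no filter, 1443 genes were lower in IMQ than in normal members, and between IMQ+celastrol and IMQ 175 were higher and 205 lower. With each cell weighted equally 298 genes were lower in IMQ+celastrol than in IMQ. Over 14 alternatives, list counts in normal kept within 1.5 times their value in 430 of 448 cases for higher and 400 of 448 for lower genes. Of 350 log2 ratios of the 25 leading genes, 1 changed sign: Hbb-bs, at 0.14 without doublets. Another 272 moved by more than their counting interval with the same sign. The causes were not tested, except that a missing filter admits more genes. Doublet removal was not run for IMQ, where the caller marked 0 of 8008 cells. No paired analysis was possible because each group is 1 library. The number of cells limits the IMQ values, since 32 members carry all of them.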
